A study of Mus musculus with 4 samples.

Results

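The genes described here encode 3 linked groups of splicing regulators in the mouse embryonic cortex: SR proteins, hnRNPs and the kinases that phosphorylate SR proteins. Members were the rows of the gene count table whose symbol starts with Srsf, Hnrnp, Srrm, Srpk or Tra2, or is Clk1, Clk2, Clk3 or Clk4. This rule found 42 of 23240 rows, which were 11 Srsf, 2 Tra2, 18 Hnrnp, 4 Srrm, 3 Srpk and 4 Clk genes. Cells came from cortices of embryonic day 15.5 embryos bred from heterozygous Nestin-GFP and homozygous DCX-mRFP mice, and per the labels only embryos positive for both reporters were used. Neural progenitor cells (NPCs) were sorted as green cells and their daughter neurons as cells with both colours, and the 2 groups held 2 RNA-seq libraries each. By their names, the reporters mark cells that use the genes of nestin, a filament protein of progenitors, and of doublecortin, a microtubule protein of young neurons. The labels call the libraries duplicates and name no separate litters, so the spread behind each p-value may be technical.

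SR proteins carry an RNA-binding domain and a tail rich in arginine and serine, and they mostly promote the use of exons by recruiting splicing factors to nearby splice sites. hnRNPs coat nascent transcripts and often have the opposite effect on an exon. Srpk kinases phosphorylate the tails in the cytoplasm, which permits nuclear import, and Clk kinases add phosphates in the nucleus, which releases SR proteins from nuclear speckles. Srrm1 and Srrm2 are large scaffold proteins of the spliceosome, while Srrm3 and Srrm4 promote the inclusion of microexons in neurons. Many of these genes limit their own output through exons that send the transcript to nonsense-mediated decay.

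The 250 bases before the annotated start of 4 members are shown because these 4 form the 2 pairs of related genes whose ratio was higher in neurons by more than 1.5-fold: Srsf12 with Srsf10, and Srrm3 with Srrm4. Sequences are from RefSeq on GRCm38.p6, a later build than that of the counts. They run 5′ to 3′ on the strand of the gene, with each CG dinucleotide in capitals. Srsf12 lies at chr4:33209022-33209271 (plus strand), Srsf10 at chr4:135855821-135856070 (plus strand), Srrm3 at chr5:135817856-135818105 (plus strand) and Srrm4 at chr5:116591818-116592067 (minus strand).
Srsf12: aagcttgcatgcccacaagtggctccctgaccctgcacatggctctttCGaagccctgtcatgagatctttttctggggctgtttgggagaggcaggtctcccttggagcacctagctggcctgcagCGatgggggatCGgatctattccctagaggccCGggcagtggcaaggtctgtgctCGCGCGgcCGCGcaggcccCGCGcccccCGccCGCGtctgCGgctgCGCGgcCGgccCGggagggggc
Srsf10: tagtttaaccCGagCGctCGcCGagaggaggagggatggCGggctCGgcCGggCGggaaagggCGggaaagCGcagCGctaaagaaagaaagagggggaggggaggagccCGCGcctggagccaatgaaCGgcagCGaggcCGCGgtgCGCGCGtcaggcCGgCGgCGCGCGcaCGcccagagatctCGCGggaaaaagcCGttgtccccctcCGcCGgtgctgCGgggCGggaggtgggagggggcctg
Srrm3: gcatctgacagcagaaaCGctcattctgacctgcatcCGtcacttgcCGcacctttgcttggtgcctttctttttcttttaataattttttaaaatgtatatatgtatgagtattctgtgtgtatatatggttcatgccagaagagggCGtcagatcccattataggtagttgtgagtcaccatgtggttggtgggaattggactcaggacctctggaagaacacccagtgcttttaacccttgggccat
Srrm4: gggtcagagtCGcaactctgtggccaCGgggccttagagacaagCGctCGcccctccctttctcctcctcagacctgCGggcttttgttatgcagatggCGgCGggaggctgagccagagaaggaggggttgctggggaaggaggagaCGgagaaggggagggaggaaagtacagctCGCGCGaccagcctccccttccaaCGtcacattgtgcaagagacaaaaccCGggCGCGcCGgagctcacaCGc
The stretch of Srsf12 held 19 CG dinucleotides and that of Srsf10 33. Srrm4 held 17, and Srrm3 held 4. Of 40 members with an entry, Srrm3 and Srpk3 were the 2 that stayed under 10 CG in every annotated start. The median over 55 member windows was 23 CG. Over all 32851 windows, which include genes not tested here, it was 6 CG.

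Depth was close to equal, at 52611828 to 55615142 counts per library. The labels of the sort were reflected in marker lists. All 15 radial glia markers were higher in NPCs (median log2 change -2.47) and 13 of 14 neuron markers were higher in neurons (median 2.28). All 7 intermediate progenitor markers were higher in NPCs (median -2.51). Markers of 5 other cell types had higher summed levels in NPCs. Summed levels were 288 and 295 CPM (the count scaled to a fixed library total) in NPCs against 10.2 and 9.86 CPM in neurons for 11 endothelial markers. They were 195 and 198 against 5.70 and 5.97 CPM for 7 oligodendrocyte precursor markers, 227 and 231 against 8.38 and 7.85 CPM for 7 pericyte markers, and 47.9 and 48.2 against 23.2 and 22.4 CPM for 10 microglia markers. For 8 red blood cell markers the sums were 2299 and 1892 against 316 and 310 CPM. Under 1 CPM in both neuron libraries were 5 endothelial, 5 oligodendrocyte precursor, 3 pericyte, 4 microglia and 2 red blood cell markers. No marker of these lists was at 0 in every library, and the part of these cells in the members' results was not tested. Of 8 interneuron markers, 3 were higher in neurons and 2 in NPCs (median log2 change 0.29), and their summed levels overlapped, at 186 and 181 CPM in NPCs and 179 and 193 CPM in neurons. The 14 cell division markers, at 2881 and 2921 CPM in NPCs and 797 and 743 CPM in neurons, also moved with the sort, and their part was not tested.

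As a group, SR protein and hnRNP genes took a smaller share of the neuron libraries. The 42 members held 2.00% and 2.02% of all counts in the NPC libraries and 1.56% and 1.55% in the neuron libraries. The Hnrnp genes went from 1.34% and 1.35% to 1.04% and 1.03%, and the Srsf genes from 0.484% and 0.490% to 0.370% and 0.365%. The Srpk genes went the other way, from 0.0229% and 0.0232% to 0.0292% and 0.0282%. These shares use no scaling between libraries. With library size as the only scaling, the median log2 change (neurons over NPCs) of all genes tested was also below 0, at -0.23. In bulk samples, fewer cells of a type and less RNA per cell cannot be told apart.

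**Figure D1:**
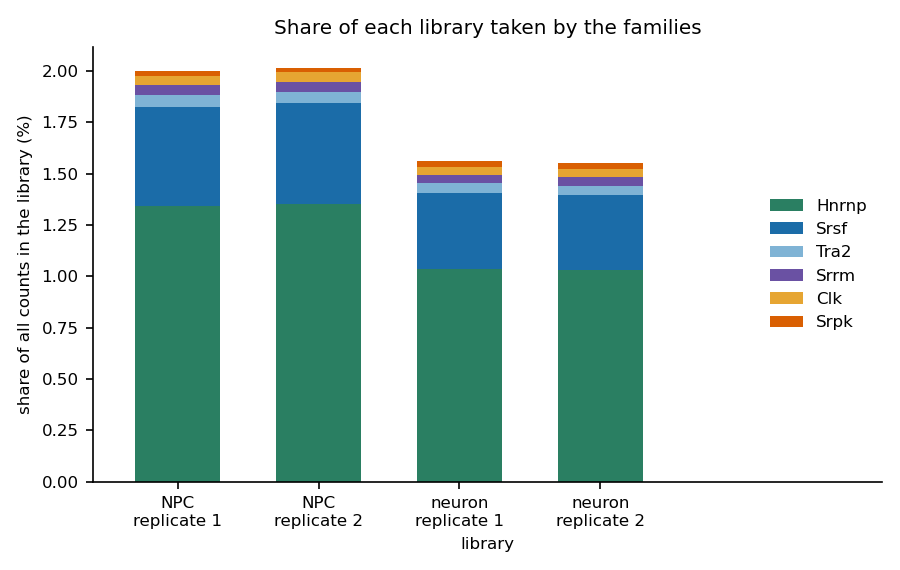
Stacked bars give the share of all counts (%) taken by each family in each of the 4 libraries. Both NPC libraries stand near 2.0% and both neuron libraries near 1.6%, and the Hnrnp genes make up most of each bar.

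Of the 42 members, 41 passed the filter on low counts. Srpk3, a kinase gene known from muscle, had 12.5 and 6.08 counts in NPCs and 0 and 2.83 counts in neurons and was not tested. By the quasi-likelihood test of edgeR, adjusted over all genes by Benjamini-Hochberg, 20 of 41 members were higher in NPCs, 9 were higher in neurons and 12 did not pass an adjusted p of 0.05. Over all 15292 genes tested, 72.6% passed, 36.9% higher in NPCs and 35.8% higher in neurons. The members' share called, 70.7%, was thus near the background. Their median log2 change (neurons over NPCs) was -0.07, beside -0.02 over all genes tested. The split depended on scaling: with library size as the only scaling, 31 members were higher in NPCs and 4 in neurons, beside 49.8% and 25.1% of all genes. That scaling moved the median log2 change of all genes from -0.02 to -0.23 and that of the members from -0.07 to -0.28.

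Most changes were small. The median absolute log2 change was 0.24 over the members and 0.50 over all genes tested. At a mean level of 50 CPM or more, a limit chosen after the values were seen, it was 0.20 for 37 members and 0.31 for 4793 genes. Changes stayed within 1.5-fold for 35 of 41 members (85.4%) and for 54.4% of all genes. At 50 CPM or more the shares were closer, at 89.2% of 37 members and 71.4% of 4793 genes. In a test that asks for a change beyond 1.5-fold (edgeR's glmTreat), 3 members passed: Srsf12 and Srrm3 higher in neurons and Hnrnpf higher in NPCs. The same test passed 35.2% of all genes, 20.4% toward NPCs and 14.8% toward neurons. At 50 CPM or more it passed 369 of 4793 genes toward NPCs and 762 toward neurons, and 1 and 0 of 37 members.

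**Figure D2:**
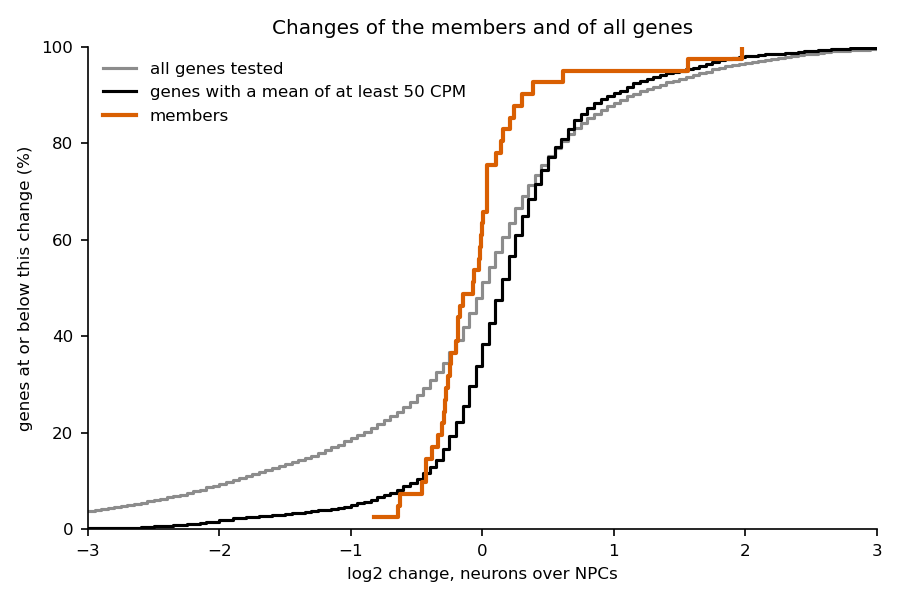
Cumulative share of genes (%) against log2 change of neurons over NPCs for the 41 tested members, all 15292 genes tested and the 4793 genes at 50 CPM or more on average. The members' curve is steep between -0.5 and 0.4 and has a short tail at the right, made by Srpk2, Srrm3 and Srsf12.

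Among the 11 classical and related SR proteins of the Srsf family, 7 were higher in NPCs, 2 were higher in neurons and 2 did not pass, with a median log2 change of -0.20. Srsf12, which encodes an SR-related protein close to Srsf10, stood at 10.2 and 9.05 CPM in NPCs and 37.4 and 38.4 CPM in neurons. Both neuron libraries were far above both NPC libraries, a log2 change of 1.98 ± 0.08 (SE, edgeR adjusted p = 1.6e-12). This was the largest change of any tested member in either direction, at the 96.7th percentile of all genes tested. Its relative Srsf10, a splicing repressor when dephosphorylated, was at 384 and 405 CPM in NPCs and 412 and 369 CPM in neurons. The Srsf10 groups overlapped and it did not pass, with a log2 change between -0.14 and 0.11 (95% interval).

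Srsf9 fell most within the family. It was at 211 and 202 CPM in NPCs and 139 and 126 CPM in neurons (log2 change -0.64 ± 0.06; adjusted p = 4.6e-08 by edgeR). Srsf1, the best studied SR protein and one able to act as an oncogene, was at 735 and 791 CPM in NPCs and 599 and 610 CPM in neurons. Both NPC libraries were above both neuron libraries, with a log2 change of -0.34 ± 0.06. Srsf2, a resident of nuclear speckles, was at 578 and 593 CPM against 408 and 461 CPM, a log2 change of -0.43 ± 0.06. Srsf6 had close duplicates in both groups, at 383 and 382 CPM in NPCs and 293 and 292 CPM in neurons (log2 change -0.39 ± 0.05). Srsf4, Srsf3 and Srsf5 fell less, by 0.26, 0.20 and 0.19 on the log2 scale. The calls of Srsf3 and Srsf5 were lost without either NPC library. Srsf7, which like Srsf3 also acts in mRNA export, had a log2 change of -0.02 and did not pass. With library size only, Srsf7 and Srsf10 both passed as higher in NPCs at -0.22. Srsf11 was the other member higher in neurons, at 0.14, a call lost without either NPC library, under a 5 CPM filter (0.11) and under upper-quartile scaling (0.04), and turned to -0.06 with library size only.

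Tra2a and Tra2b encode SR-like activators of exons with tails at both ends of the protein. Neither passed. Tra2b was at 416 and 411 CPM in NPCs and 411 and 383 CPM in neurons, with a log2 change between -0.18 and 0.06 (95% interval). For Tra2a, at 98.9 and 101 CPM in NPCs and 100.3 and 105 CPM in neurons, that interval was -0.08 to 0.15. The groups overlapped for both genes. With library size only, both passed as higher in NPCs, at -0.17 for Tra2a and -0.27 for Tra2b. Tra2b also passed in that direction with upper-quartile factors (-0.16) and without neuron replicate 1 (-0.10).

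The 4 Srrm genes all passed, 2 in each direction, where 72.6% of all genes tested passed. Srrm3, a promoter of neuronal microexons, was at 4.52 and 4.68 CPM in NPCs and 13.3 and 13.8 CPM in neurons. The groups were far apart, with a log2 change of 1.56 ± 0.11 (edgeR adjusted p = 1.2e-09). Srrm4 acts on the same class of exons and was at 85.3 and 87.1 CPM in NPCs and 106 and 120 CPM in neurons. Its log2 change was 0.39 ± 0.06, in the same direction as that of Srrm3. The scaffold gene Srrm2 was at 265 and 262 CPM in NPCs and 198 and 233 CPM in neurons (log2 change -0.29 ± 0.07) with the neuron duplicates 17.3% apart. Srrm1, a coactivator that bridges exon-bound SR proteins to the spliceosome, had a log2 change of -0.14 ± 0.06. The Srrm1 call was lost without NPC replicate 1, NPC replicate 2 or neuron replicate 1, with no low-count filter (adjusted p = 0.053) and with DESeq2 (adjusted p = 0.075).

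Both Srpk genes that were tested were higher in neurons, where 35.8% of all genes tested were. Srpk2 was at 143 and 149 CPM in NPCs and 228 and 219 CPM in neurons (log2 change 0.62 ± 0.05; adjusted p = 2.3e-08 by edgeR). Srpk1 was at 70.2 and 67.8 CPM in NPCs and 86.8 and 83.5 CPM in neurons (log2 change 0.30 ± 0.06). The groups did not overlap for either gene, as for 86.0% of all genes tested. With library size only, Srpk2 remained called at 0.41 and Srpk1 did not pass (0.10, adjusted p = 0.13).

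The 4 nuclear Clk kinases showed no common direction. Clk4 was at 102 and 103 CPM in NPCs and 125 and 113 CPM in neurons (log2 change 0.21 ± 0.06). Clk2 was at 48.9 and 52.2 CPM in NPCs and 40.3 and 41.3 CPM in neurons (log2 change -0.31 ± 0.06). Clk1, whose own transcript is known for retained introns that respond to stress, was at 157 and 166 CPM in NPCs and 174 and 157 CPM in neurons. The Clk1 groups overlapped and it did not pass (95% interval -0.09 to 0.16). It passed as higher in neurons without neuron replicate 2 (0.12) and as higher in NPCs with library size only (-0.17). Clk3 did not pass at a log2 change of 0.03, and passed at -0.17 with library size only. The call of Clk4 was lost with library size only (0.0034) and with upper-quartile factors (0.11), while Clk2 kept its call under both.

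Of the 18 Hnrnp genes, 10 were higher in NPCs, 2 were higher in neurons and 6 did not pass, with a median log2 change of -0.18. Hnrnpf, which binds runs of guanines, was at 735 and 747 CPM in NPCs and 412 and 424 CPM in neurons. The NPC libraries were 1.77-fold higher, a log2 change of -0.83 ± 0.05 (edgeR adjusted p = 4.3e-10). Of the 101-base windows in annotated Hnrnpf transcripts (GENCODE M21), 49.2% also occur, on either strand, in transcripts of other genes, most of all Gm6430. The Hnrnpf counts may thus be shared with copies and are uncertain. Hnrnpm, a regulator of epithelial and mesenchymal splice choices, was at 686 and 705 CPM in NPCs and 456 and 445 CPM in neurons (log2 change -0.63 ± 0.05). Hnrnpu, which binds nuclear matrix DNA and chromatin-bound RNA, was at 1408 and 1461 CPM in NPCs and 1048 and 1086 CPM in neurons (log2 change -0.43 ± 0.06). Its relative Hnrnpul1 was at 52.1 and 57.4 CPM in NPCs and 36.0 and 43.6 CPM in neurons (log2 change -0.46 ± 0.08). The Hnrnpul1 neuron duplicates were 21.1% apart. Its log2 change was -0.32 without neuron replicate 1 and -0.60 without neuron replicate 2. Hnrnpul2 was at 56.2 and 57.5 CPM in NPCs and 58.3 CPM in both neuron libraries. It did not pass, except with library size only (-0.17).

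The A/B group of hnRNPs, the core of the particles on nascent RNA, went both ways. Hnrnpa2b1, which also sorts RNAs for transport, was at 1661 and 1670 CPM in NPCs and 1348 and 1400 CPM in neurons (log2 change -0.28 ± 0.05). Hnrnpa3 had the same size of change, at -0.28 ± 0.05, and Hnrnpa1 a smaller one, at -0.18 ± 0.05. Hnrnpa0 was the member of the Hnrnp family that rose most, from 109 and 101 CPM to 124 and 125 CPM, a log2 change of 0.24 ± 0.06. Hnrnpr, a regulator of axonal RNA, rose by 0.15 ± 0.05. Both of these calls were lost with library size only, at 0.04 for Hnrnpa0 and -0.05 for Hnrnpr. The Hnrnpa0 call was also lost without NPC replicate 2 (adjusted p = 0.055 by edgeR), and the Hnrnpr call with upper-quartile factors (0.05) and without either NPC library. The Hnrnpa1 call was lost without either NPC library.

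Hnrnpk, a poly-C binding protein, was at 2307 and 2334 CPM in NPCs and 2624 and 2359 CPM in neurons. Both neuron libraries were above both NPC libraries, yet the gap between neuron duplicates was wide and it did not pass (0.10 ± 0.06). Without neuron replicate 2 the log2 change was 0.19 and passed. Hnrnph1, Hnrnph3, Hnrnpab and Hnrnpc also did not pass, with log2 changes from -0.07 to 0.00 and intervals within -0.18 and 0.12. With library size only these 4 passed as higher in NPCs, at -0.23, -0.21, -0.21 and -0.28, and with upper-quartile factors Hnrnph1 (-0.13) and Hnrnpc (-0.17) did. Hnrnph2, Hnrnpl and Hnrnpd fell by 0.25, 0.24 and 0.17 on the log2 scale, and the call of Hnrnpd was lost without either NPC library.

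**Figure D3:**
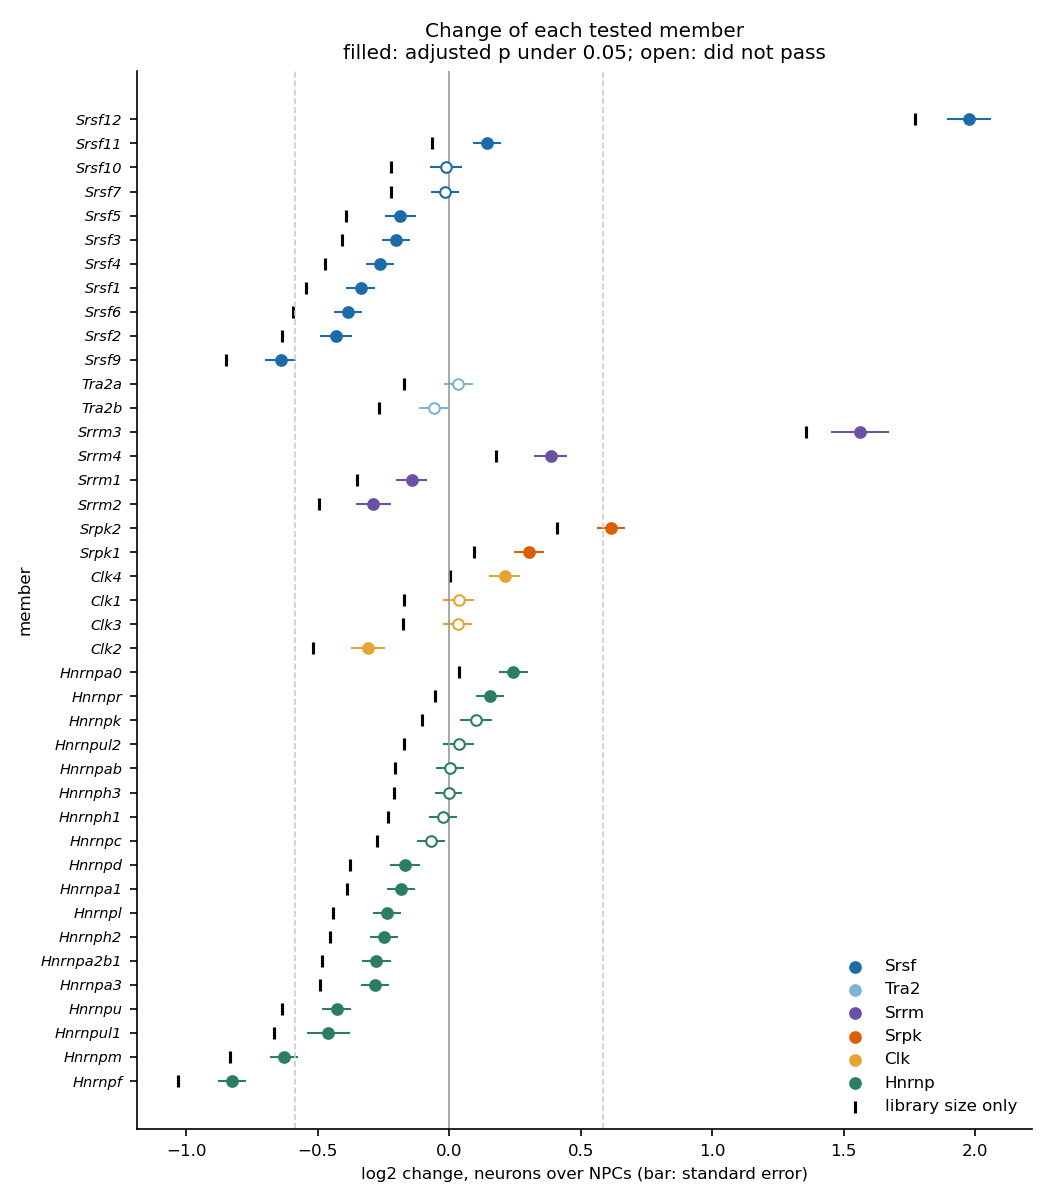
Log2 change of neurons over NPCs (points, bars are standard errors) for the 41 tested members by family, with filled points past an adjusted p of 0.05 and black ticks for library size only. Dashed lines mark 1.5-fold, and Srsf12, Srrm3 and Hnrnpf lie farthest outside them.

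**Figure D4:**
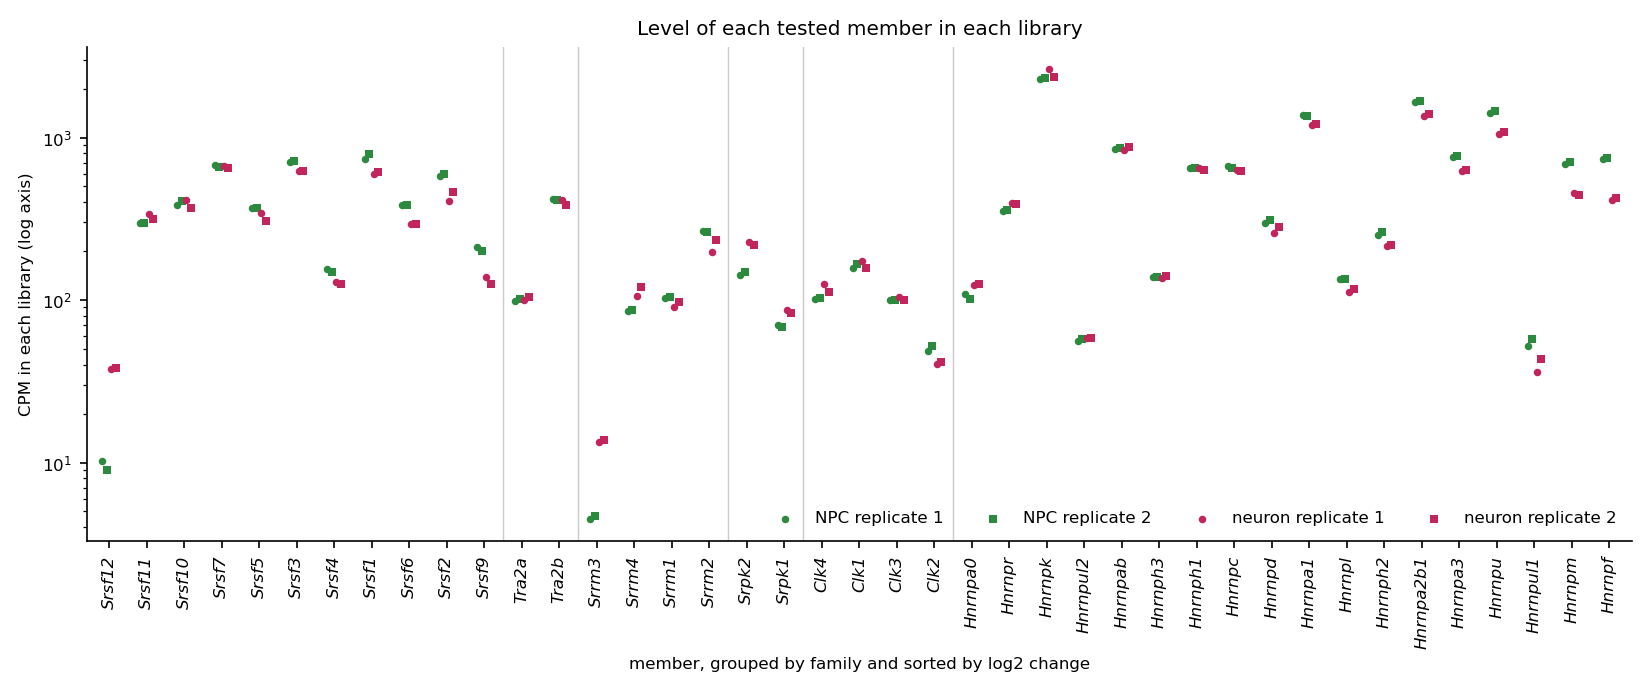
CPM (log axis) of each tested member in each of the 4 libraries, by family and in order of log2 change. Duplicates lie close together, and the NPC and neuron points of Srsf12 and Srrm3 are the widest apart. Heights of different genes are not compared, because the values are not per length.

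Of the 29 members called, 19 kept their call and direction under all 12 alternatives. These were 15 higher in NPCs and 4 higher in neurons. The 4 were Srsf12, Srrm3, Srpk2 and Srrm4. The 15 were Srsf1, Srsf2, Srsf4, Srsf6, Srsf9, Hnrnpa2b1, Hnrnpa3, Hnrnpf, Hnrnph2, Hnrnpl, Hnrnpm, Hnrnpu, Hnrnpul1, Srrm2 and Clk2. This split depends on the alternatives chosen. Calls toward neurons and NPCs, 9 and 20, became 6 and 23 with upper-quartile factors and 4 and 31 with library size only. Both scalings moved changes toward NPCs, so they could remove calls toward neurons but hardly calls toward NPCs. The share of kept calls over all genes was not counted. Neuron duplicates differed more than NPC duplicates for 29 of 41 members (70.7%), beside 61.0% of all genes tested.

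Ratios of related genes within a library do not depend on the scaling between libraries. Of 22 pairs compared, 3 had a ratio that moved by 1.5-fold or more. Srsf12 had 0.0266 and 0.0224 counts per Srsf10 count in NPCs and 0.0907 and 0.104 in neurons, 3.99-fold more. Srrm3 had 0.0528 and 0.0538 counts per Srrm4 count in NPCs and 0.126 and 0.116 in neurons, 2.27-fold more. Both neuron libraries were above both NPC libraries in each of these pairs. Hnrnpf went from 1.14 counts per Hnrnph1 count in both NPC libraries to 0.637 and 0.673 in neurons, and the NPC ratio was 1.74-fold higher. With 2 libraries a group the smallest exact permutation p is 0.333 (two-sided). All 17 pairs whose groups did not overlap, these 3 among them, had that p (0.431 adjusted over the 22 pairs).

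Other pairs moved less. The Srpk2 count per Srpk1 count went from 2.03 and 2.19 to 2.62 in both neuron libraries, and that of Hnrnpa0 per Hnrnpa2b1 from 0.0655 and 0.0607 to 0.0917 and 0.0892. The Clk2 count per Clk3 count was 0.487 and 0.524 in NPCs and 0.386 and 0.413 in neurons. The groups overlapped for 5 pairs: Tra2a with Tra2b, Srsf2 with Srsf1, Hnrnpa3 with Hnrnpa2b1, Hnrnph3 with Hnrnph1 and Hnrnpul1 with Hnrnpu. The Hnrnpa3 count per Hnrnpa2b1 count was the flattest, at 0.460 in both NPC libraries and 0.463 and 0.453 in neurons.

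**Figure D5:**
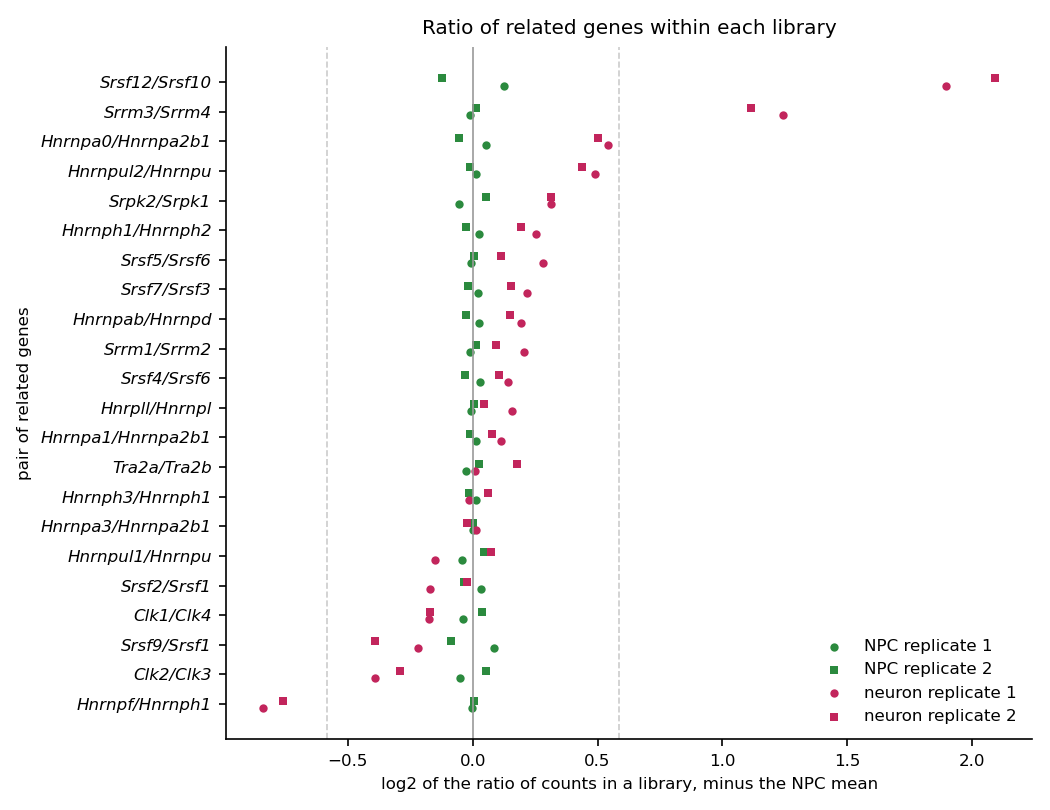
Log2 ratio of counts of 22 pairs of related genes in each library, with the mean of the NPC libraries set to 0 and dashed lines at 1.5-fold. The neuron points of Srsf12/Srsf10 and Srrm3/Srrm4 lie to the right of the lines and those of Hnrnpf/Hnrnph1 to the left.

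Genes that work with the members were counted from 4 lists in the same fit, where the background was 36.9% of genes toward NPCs and 35.8% toward neurons. Of 25 hnRNP and related RNA-binding genes without the Hnrnp prefix, 12 were called toward NPCs and 9 toward neurons, with a median of -0.11. Within them Ralyl, a neuronal relative of the hnRNP gene Raly, went from 15.1 and 14.3 CPM to 85.6 and 78.4 CPM. Ptbp1, a repressor of neuronal exons, went from 159 and 162 CPM to 54.4 and 59.5 CPM. Of 23 SR-related proteins, 7 were higher in each group (median 0.01), with Scaf11 at -0.43 ± 0.05 and Sugp2 at 0.36 ± 0.07. Of 19 kinases, phosphatases and transport factors, not all of which act on SR proteins directly, 9 were higher in neurons and 6 in NPCs (median 0.10). The mRNA export adaptor Alyref fell by 0.77 ± 0.06 on the log2 scale. Of 18 factors that recognise splice sites with U1 or U2AF, 7 were higher in each group (median -0.05). The branch point binder Sf1 was at -0.35 ± 0.05 and the U1-associated Prpf40b at 0.35 ± 0.06.

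Features that the rule did not use were read from annotation. In GENCODE M21, 29 of 42 members (69.0%) have a transcript classed as a target of nonsense-mediated decay, beside 27.3% of 12963 protein-coding genes tested. A transcript with a retained intron is annotated for 33 members (78.6%), beside 56.9%. Srsf12 has neither, while Srrm3 has both. The counts do not separate transcripts, so the use of these forms was not analysed here. Members and protein-coding genes were not matched for level or number of annotated transcripts, and the 42 include Srpk3, which was not tested. In RefSeq windows from 250 bases before to 50 bases after a start, the letters GGGCGG (a GC box, either strand) occur in 74.5% of member windows and 35.7% of all windows. The E2F letters TTTCCCGC occur in 9.09% against 1.07%, in Srsf1, Srsf10, Tra2b, Hnrnpr and Hnrnpul1. All windows here are 32851 windows of 27025 annotated genes, so genes not tested here are included, unlike in the GENCODE comparison above. These matches are descriptions, and the members' windows are also richer in bases G and C, with a median of 65.0% against 52.7%.

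Shared sequence limits some members. For 9 of 42, more than 10% of the 101-base windows of their transcripts occur in transcripts of other genes, read on either strand. After Hnrnpf these were Srsf4 (36.3%), Hnrnpa1 (25.8%), Hnrnpa3 (25.6%), Hnrnpab (18.3%), Srsf2 (16.5%), Clk3 (12.5%), Hnrnpm (12.4%) and Hnrnpk (11.8%). For Srsf4, Hnrnpab, Srsf2 and Clk3, the gene that shares most windows is one whose exons overlap theirs on the opposite strand. Counting these, the exons of 15 members overlap a gene on the opposite strand, such as Mettl23 and Mfsd11 at Srsf2. The use of strand in counting is not given in the sources used here. Srsf12, Srrm3 and Srrm4 share no such window with another gene, although an antisense gene, Srrm4os, overlaps exons of Srrm4.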

How the data were processed

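Total RNA of sorted cells was sequenced in 4 libraries, 2 of NPCs and 2 of neurons, grouped by their titles. The authors deposited 1 table of estimated counts per gene. Values below 10000 were whole bases over a read length of 101 (tolerance 0.01 base), so the deposited counts appear to be covered bases over read length. The submitters' processing notes name build mm9, TopHat 1.2.0, SAMtools 0.1.18 and CASAVA 1.9, without roles. Not given in the sources used here are the counting tool, the annotation and the use of strand.

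Estimated counts were rounded. The filterByExpr function kept 15292 genes, libraries were scaled by TMM factors of 1.08, 1.07, 0.928 and 0.933, and groups were compared unpaired by edgeR 4.0.16 (R 4.3.3), two-sided, with limma 3.58.1 and DESeq2 1.42.0 as alternatives. SE is the log2 change over the square root of F. The test was checked on simulated data with few genes changed, equally up and down. It recovered 32 of 50 genes changed 1.25-fold and 47 of 50 changed 1.5-fold, and 9 of 188 calls were false. The glmTreat test recovered 47 of 50 at 2-fold. It called 0 of 50 at 1.5-fold, which is the limit it tests against and so does not measure recovery. Far more genes were called in the real data, so the simulation did not check the scaling. Duplicates differed by more than sampling noise (chi-square per gene 4.57 and 14.1). The members and lists were chosen with earlier results of these data known. Levels in every library were given for called members changed at least 1.5-fold, the extremes and most abundant member of each family, and pairs whose ratio moved by 1.5-fold. Further members with such values were added after seeing the data. Annotation was matched by symbol for 42 of 42 members in GENCODE M21 and 40 in the RefSeq promoter table (GRCm38.p6). The value of a further gene of these lists is not reported here.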

Additional observations from a re-analysis of the deposited data

How the results depend on the processing

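The alternatives were DESeq2, limma-voom, other scalings, other low-count filters, a replicate block and leaving out each library. The counts of 9 members higher in neurons and 20 higher in NPCs became 4 and 31 with library size only, where members past 1.5-fold toward NPCs went from 1 to 3 (Hnrnpf with Hnrnpm and Srsf9). Without 1 library they ranged from 6 to 11 and from 15 to 21, members past 1.5-fold toward NPCs from 1 to 2 (Srsf9 was added without neuron replicate 1, and Srpk3 without neuron replicate 2), and the other counts stayed within 1.5 times. The replicate block gave 9 and 20 and changed no call of a member. Deviations of the duplicates numbered 1 from their group means had a correlation of 0.048 across 13235 genes, so the numbers give no sign of pairing.

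Directions turned for members with small changes. With library size only, Clk1 (-0.17), Clk3 (-0.17), Hnrnpab (-0.21), Hnrnpul2 (-0.17) and Tra2a (-0.17) turned and passed, and Hnrnpk (-0.11), Hnrnpr (-0.053) and Srsf11 (-0.064) turned without passing. With upper-quartile factors Clk1 was at -0.065, Clk3 at -0.068, Hnrnpab at -0.099, Hnrnpul2 at -0.065 and Tra2a at -0.066. With the filter of 5 CPM they were at -0.0016, -0.0049, -0.035, -0.0018 and -0.0026. Hnrnph3 was at 0.0063 with DESeq2 and with RLE factors and at 0.0071 with no low-count filter. Without NPC replicate 1, Clk1 was at -0.0068, Hnrnpab at -0.0011, Hnrnph3 at 0.0021 and Srsf7 at 0.00016. Without NPC replicate 2, Srsf10 was at 0.025. Without neuron replicate 1, Clk1 was at -0.027 and Hnrnph3 at 0.029. Without neuron replicate 2, Hnrnpab was at -0.019, Hnrnph1 at 0.0024, Srsf10 at 0.072, Srsf7 at 0.023 and Tra2b at 0.00082. The cause was not tested. Over the libraries left out 1 at a time, the other ends of these ranges were 0.12 for Clk1, 0.042 for Hnrnpab, -0.034 for Hnrnph1, -0.014 for Hnrnph3, -0.084 for Srsf10 and -0.10 for Tra2b.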

Other observations

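Some genes of the same families carry older symbols in the table and fall outside the rule. They were chosen after their values were seen. Hnrpdl, which encodes the hnRNP D-like protein, was at 383 and 387 CPM in NPCs and 531 and 524 CPM in neurons (log2 change 0.45 ± 0.05; adjusted p = 7.1e-07 by edgeR). Among genes with the Hnrnp prefix the highest log2 change was 0.24, for Hnrnpa0. Hnrnpd, the relative of Hnrpdl, was lower in neurons, at -0.17 ± 0.06, and the difference between the changes of Hnrpdl and Hnrnpd was not tested. Hnrpll, a relative of Hnrnpl, was at 234 and 239 CPM in NPCs and 218 and 213 CPM in neurons (log2 change -0.14 ± 0.05). Sfrs18, an older symbol of an SR-related gene, was at 260 and 256 CPM in NPCs and 275 and 255 CPM in neurons, and its change of 0.04 ± 0.06 (log2) did not pass.

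Among the abundant genes tested, those with a mean of at least 100 CPM (a limit chosen after the values were seen), 17 of 33 members were higher in NPCs (51.5%), where 25.5% of 2449 genes were. In the same range 5 members (15.2%) and 52.4% of genes were higher in neurons. The median log2 change was -0.17 for these members and 0.16 for these genes. At 50 CPM or more, 18 of 37 members and 26.75% of 4793 genes were higher in NPCs. Higher in neurons were 7 of these members and 49.45% of these genes. The medians were closer there, at -0.07 for members and 0.13 for genes. No test of these differences was made.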
